A study of Homo sapiens with 10 samples.

Results

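The ligands BAFF and APRIL and their receptors were followed in the human multiple myeloma line U266 after activation of the ephrin gene EFNB2. The members were taken by symbol and are TNFSF13B, which encodes BAFF, TNFSF13, which encodes APRIL, TNFRSF13B, which encodes the receptor TACI, and TNFRSF13C, which encodes the BAFF receptor. They are 4 of the 60573 genes read from the count table, and 3 of them were among the 17833 genes that passed the filter on low counts and were tested. TNFRSF17, which encodes BCMA, the third receptor of the system, is given beside them.

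BAFF and APRIL are ligands of the tumour necrosis factor superfamily that keep B cells and plasma cells alive. Both are made as trimers and can be cut by furin-type proteases. BAFF binds the BAFF receptor, TACI and BCMA, while APRIL binds TACI and BCMA and also heparan sulphate chains such as those carried by syndecan-1. The BAFF receptor works mainly through TRAF3 and the kinase NIK to the alternative NF-kB pathway, and BCMA is the receptor typical of plasma cells. In the bone marrow, much of the BAFF and APRIL that myeloma cells meet is made by other cells, although myeloma cells can also express both.

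U266 is an established myeloma line of plasma cell type. All 10 libraries came from cells that carried lentiviral dCas9-VPR, a catalytically dead Cas9 fused to transcriptional activators, and that were kept in blasticidin and puromycin. In 5 libraries the cells also expressed a guide RNA directed at the start site of EFNB2 (EFNB2 guide), and in the other 5 a scrambled guide with no target (control guide). The comparison asks which members of the BAFF and APRIL system changed when EFNB2 was activated. Each guide has libraries lettered A to E. Nothing in the labels says that they came from separate cultures, so p-values measure the spread between these libraries. A single guide to EFNB2 was used in these libraries, so that effects of EFNB2 and of this guide elsewhere cannot be told apart.

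Libraries held 47267929 to 54761197 counts under the EFNB2 guide and 52142181 to 56513336 under the control guide. At this depth 3 counts equal 0.0537 to 0.0627 CPM (CPM is a count divided by the TMM-scaled library size in megareads). EFNB2 had 52, 58, 60, 73 and 61 counts under the EFNB2 guide (A to E), against 9, 7, 8, 6 and 2 under the control guide. Its log2 fold change was 3.32 ± 0.25 (SE, n = 5 each, adjusted p = 4.69e-08, edgeR's quasi-likelihood test with Benjamini-Hochberg adjustment). The filter on low counts asked for at least 0.191 CPM in 5 libraries. EFNB2 had at most 0.170 CPM under the control guide and at least 0.955 CPM under the EFNB2 guide. It was thus tested because of its level under the EFNB2 guide. The plasma cell markers summed to 5283 to 5559 CPM under the EFNB2 guide and 5518 to 6277 CPM under the control guide, with SDC1 and JCHAIN the main contributors. Single markers of the list moved in opposite directions without overlap: SDC1 and MZB1 were lower under the EFNB2 guide, while JCHAIN (1979.6 to 2128 CPM, against 1776 to 1964 under the control guide), XBP1, SLAMF7 and CD38 (6.15 to 8.94 CPM, against 1.33 to 2.93) were higher. The A library of each guide stood apart from the rest of its group on the second principal component (8.33% of the variance), and TNFSF13B, the member on which one of them bears most, is given without it. Over all tested genes 45.4% passed an adjusted p of 0.05, 22.8% higher and 22.6% lower under the EFNB2 guide. These shares are the background of every count of genes given here.

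Both ligands were higher under the EFNB2 guide, BAFF by 1.41-fold and APRIL by 2.71-fold between the means, and both had non-overlapping groups. The BAFF receptor did not pass the test, and TACI was too low to be tested. Over all tested genes, the groups did not overlap in 30.3%, with the EFNB2 guide higher in 15% and lower in 15.2%.

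TNFSF13B lies on chromosome 13 (chr13:108251240-108308484, plus strand, GENCODE 29, GRCh38). It had 662, 684, 618, 702 and 634 counts in libraries A to E under the EFNB2 guide, or 12.2, 13.2, 12.9, 14.4 and 12.5 CPM. With the control guide it had 355, 518, 555, 570 and 490 counts, or 6.71, 10.0, 9.94, 10.5 and 8.93 CPM. All 5 libraries under the EFNB2 guide were above all 5 under the control guide, and the control A library was the lowest. The means were 13.04 ± 0.850 CPM under the EFNB2 guide and 9.22 ± 1.51 CPM under the control guide (SD, n = 5 each). The log2 fold change was 0.50 ± 0.09 (SE, n = 5 each; adjusted p = 0.000467 by edgeR's quasi-likelihood test), and 2 SE on either side span folds of 1.24 to 1.61. An exact two-sided permutation test of library values gave p = 0.00794, the smallest p that 5 against 5 allows. The control A library supplied 63.55% of the sum of squared deviations of TNFSF13B from its guide means in log2 CPM. Without that library the log2 fold change was 0.40, with an adjusted p of 1.83e-05, and without both A libraries it was 0.43. Over its 20 alternatives the adjusted p ran from 3.06e-07 to 0.00181. In bulk RNA a change in the number of cells that express a gene and a change in RNA per cell cannot be told apart.

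TNFSF13, on chromosome 17 (chr17:7558292-7561608, plus strand), was low in both groups. It had 34, 41, 26, 30 and 38 counts under the EFNB2 guide (0.624, 0.792, 0.543, 0.615 and 0.751 CPM) and 10, 19, 14, 6 and 17 counts under the control guide (0.189, 0.368, 0.251, 0.110 and 0.310 CPM). Again every library under the EFNB2 guide was above every control library. The means were 0.665 ± 0.103 CPM under the EFNB2 guide and 0.246 ± 0.101 CPM under the control guide (SD, n = 5 each). The log2 fold change was 1.43 ± 0.25 (SE, n = 5 each; adjusted p = 0.000252, edgeR's quasi-likelihood test; exact permutation p = 0.00794, two-sided), with folds of 1.91 to 3.83 within 2 SE. Summed over libraries, 169 counts under the EFNB2 guide stood against 66 under the control guide, a ratio of 2.72 after scaling for depth (95% interval 2.04 to 3.68, counting error only). The level at which a library counted toward the filter was reached in 5 of 5 libraries under the EFNB2 guide and in 3 of 5 under the control guide, so TNFSF13 was tested because of its level under the EFNB2 guide. On the deposited normalized values, as log2(value + 1), the difference was 0.41 (adjusted p = 0.000119 by limma), a scale on which low genes change less. Over its 19 alternatives the adjusted p ran from 7.40e-06 to 0.00110.

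**Figure D1:**
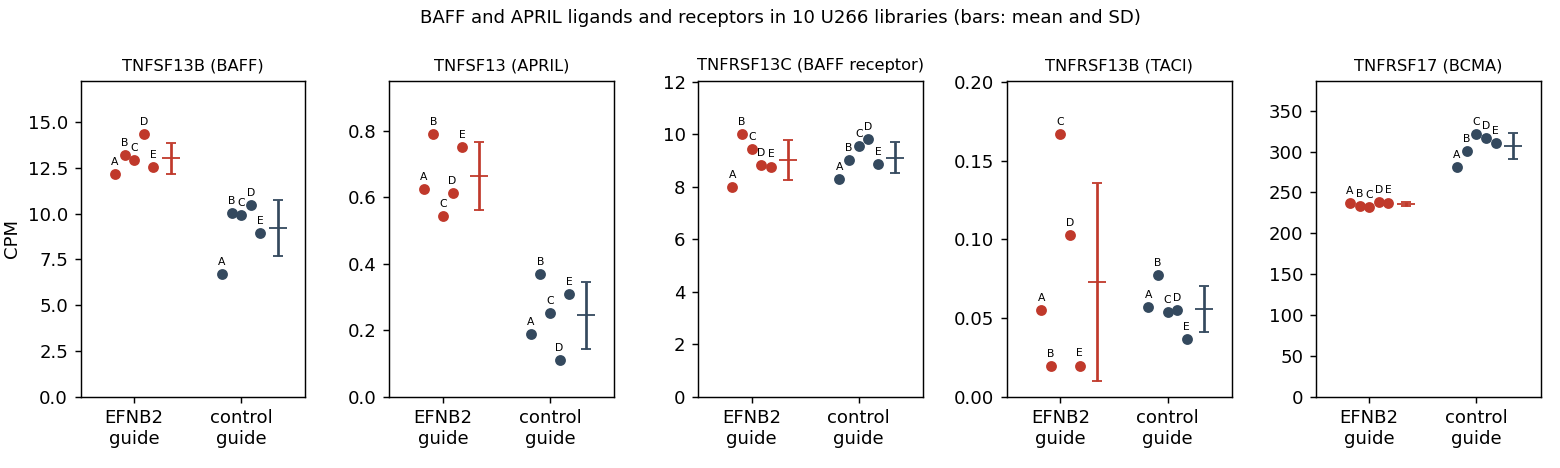
CPM of each member and of TNFRSF17 in every library (points, lettered A to E), with the EFNB2 guide left of the control guide; crossbars show the mean and SD of 5 libraries. The panels have separate axes that start at 0. TNFSF13B and TNFSF13 were higher and TNFRSF17 was lower under the EFNB2 guide without overlap, while TNFRSF13C and TNFRSF13B overlapped.

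The surroundings of TNFSF13 bear on how its counts are read. TNFSF12, the gene for the ligand TWEAK, ends 402 bases before it and had 1 count under the EFNB2 guide and 2 under the control guide over 5 libraries each. The annotated read-through transcript TNFSF12-TNFSF13, which covers APRIL on the same strand, had 0 counts in every library. How reads shared by TNFSF13 and the read-through gene were assigned is not given in the sources used here. AC016876.3, an antisense gene 47 bases before TNFSF13, had 6 counts under the EFNB2 guide and 2 under the control guide. SENP3, a SUMO protease gene that starts 267 bases after TNFSF13 on the same strand, had a log2 fold change of -0.02 ± 0.05 (SE; adjusted p = 0.824). Within libraries, the log2 ratio of TNFSF13 to SENP3 was -4.13 ± 0.18 under the EFNB2 guide and -5.69 ± 0.65 under the control guide (SD, n = 5 each). The difference of these ratios was 1.56, given as a description with no test.

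Of the receptors, TNFRSF13C (chr22:41922023-41926818, minus strand) had 435, 519, 451, 432 and 444 counts under the EFNB2 guide and 440, 466, 533, 536 and 486 under the control guide. These are 7.99, 10.0, 9.43, 8.85 and 8.78 CPM under the EFNB2 guide and 8.32, 9.04, 9.55, 9.84 and 8.86 CPM under the control guide. The groups overlapped, and both the lowest and the highest library carried the EFNB2 guide. The means were 9.02 ± 0.764 CPM under the EFNB2 guide and 9.12 ± 0.596 CPM under the control guide (SD, n = 5 each). The log2 fold change was -0.02 ± 0.07 (SE; adjusted p = 0.852, edgeR's quasi-likelihood test; exact permutation p = 0.786). Within 2 SE the fold lay between 0.901 and 1.08. CENPM, a centromere protein gene and its nearest tested neighbour at 11903 bases, was higher under the EFNB2 guide by 0.24 on the log2 scale (adjusted p = 0.00979).

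TNFRSF13B (chr17:16929816-16972118, minus strand) was close to the limit of detection. It had 3, 1, 8, 5 and 1 counts under the EFNB2 guide and 3, 4, 3, 3 and 2 under the control guide, or 0.0193 to 0.167 CPM under the EFNB2 guide and 0.0365 to 0.0776 CPM under the control guide. The groups overlapped, and both the highest and the lowest values came from libraries under the EFNB2 guide. The sums of 18 counts under the EFNB2 guide and 15 under the control guide gave a ratio of 1.28 with a 95% interval of 0.608 to 2.72 (counting error only). No difference was detectable at this depth, and the interval includes the fold seen for BAFF. The annotated span of the pseudogene TBC1D27P overlaps that of TNFRSF13B on the same strand. TBC1D27P had 18 counts under the EFNB2 guide and 14 under the control guide. Whether these genes share exons was not examined, so it is not known how well their few reads can be told apart.

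TNFRSF17 was the receptor gene with the most RNA and moved the other way from the ligands. It had 232 to 239 CPM under the EFNB2 guide and 282 to 322 CPM under the control guide, with no overlap. Its log2 fold change was -0.38 ± 0.03 (SE, n = 5 each; adjusted p = 1.54e-07 by edgeR's quasi-likelihood test).

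Per kilobase of annotated exon, the order of the levels was the same with both guides. TNFRSF17 came first with 211 ± 2.45 CPM per kilobase under the EFNB2 guide and 274 ± 14.3 under the control guide (SD, n = 5 each here and for the 4 values that follow). TNFSF13B had 4.26 ± 0.278 under the EFNB2 guide and 3.01 ± 0.494 under the control guide. TNFRSF13C had 2.29 ± 0.194 under the EFNB2 guide and 2.31 ± 0.151 under the control guide. On a ratio scale, the values of BAFF and of its own receptor in control cells lay closer together than those of any other neighbours in this order. TNFSF13 had 0.292 ± 0.0453 CPM per kilobase under the EFNB2 guide and 0.108 ± 0.0444 under the control guide. TNFRSF13B came last with 0.0205 ± 0.0177 under the EFNB2 guide and 0.0157 ± 0.00412 under the control guide. Ranges of neighbours in this order did not overlap, except those of TNFSF13B and TNFRSF13C in control libraries (2.19 to 3.42 and 2.11 to 2.50). There BAFF was above its receptor in 5 of 5 libraries. That order depends on the annotated exon lengths, 3059 bases for TNFSF13B and 3944 for TNFRSF13C. In CPM the control A library had 6.71 for TNFSF13B and 8.32 for TNFRSF13C, while TNFSF13B was the higher in control libraries B to E. By CPM, TNFSF13B lay at percentile 48.9 of the tested genes, TNFRSF13C at percentile 46.6, TNFSF13 at percentile 13.1 and TNFRSF17 at percentile 96.5.

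**Figure D2:**
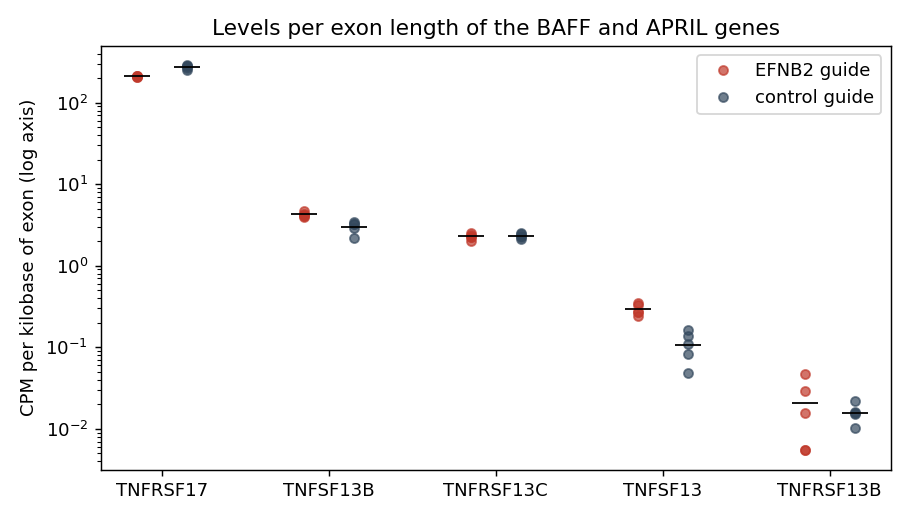
CPM per kilobase of exon on a log axis for the 5 genes of the system, with the EFNB2 guide left of the control guide; points are libraries and lines are means of 5. The order was TNFRSF17, TNFSF13B, TNFRSF13C, TNFSF13 and TNFRSF13B with both guides, with means from 211 and 274 for TNFRSF17 to 0.0205 and 0.0157 for TNFRSF13B.

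Ligand and receptor were also set against each other inside each library, which removes the scaling of libraries from the comparison. These ratios were chosen after the values were seen. The log2 ratio of TNFSF13B to TNFRSF13C in CPM was 0.53 ± 0.12 under the EFNB2 guide and 0.00 ± 0.18 under the control guide (SD, n = 5 each), a difference of 0.53. The ratio of TNFSF13B to TNFRSF17 was -4.18 ± 0.09 under the EFNB2 guide and -5.07 ± 0.20 under the control guide, a difference of 0.89. The groups did not overlap in either ratio. The pairs of genes were chosen with their values known, and TNFSF13B was already above and TNFRSF17 already below every control library, so the ratios are given as a description, with no test.

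TNFSF13B and EFNB2 lie on the same chromosome arm. EFNB2 occupies chr13:106489731-106535662 on the minus strand, and the annotated starts of the genes are 1715.6 kb apart. The 250 bases before the RefSeq starts of EFNB2 and TNFSF13B are printed here because the guide was directed at the first of these starts and BAFF was the member nearest to it (RefSeq, GRCh38.p14). The EFNB2 window is chr13:106535663-106535912 on the minus strand, and the TNFSF13B window is chr13:108269379-108269628 on the plus strand, before the first of its 2 RefSeq starts. This TNFSF13B window lies inside the GENCODE 29 span of the gene. Distances from TNFSF13B are measured from the GENCODE 29 start at base 108251240, and the bases before that start were not examined. Capitals mark 6 of the 7 motifs that were searched, each on both strands; the ETS core, GGAA, is so frequent that it was left in lower case. The kappaB motif was GGG and CC with any 5 bases between them, and the interferon response core was GAAA and GAAA with any 2 bases between them. The gamma-activated site was TTC and GAA with any 3 bases between them. The GC box was searched as GGGCGG, while the start-site box was searched as TATAAA and the E2A type of E-box as CAGGTG. Matches can overlap, so that 1 run of capitals can hold several.
EFNB2: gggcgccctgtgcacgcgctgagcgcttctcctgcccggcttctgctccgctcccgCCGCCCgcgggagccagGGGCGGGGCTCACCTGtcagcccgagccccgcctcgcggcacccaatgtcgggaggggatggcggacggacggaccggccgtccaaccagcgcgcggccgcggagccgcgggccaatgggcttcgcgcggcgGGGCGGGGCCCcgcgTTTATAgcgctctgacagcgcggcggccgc
TNFSF13B: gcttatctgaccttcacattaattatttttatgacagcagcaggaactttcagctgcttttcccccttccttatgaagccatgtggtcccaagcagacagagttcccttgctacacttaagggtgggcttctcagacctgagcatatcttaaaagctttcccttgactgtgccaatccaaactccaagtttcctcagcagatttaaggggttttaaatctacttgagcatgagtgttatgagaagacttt

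The EFNB2 window had 78.4% G and C and held 3 kappaB matches, 3 GC boxes, 1 start-site box and 1 E-box match, with 0 ETS cores. The TNFSF13B window had 42.8% G and C and 6 ETS cores, and held none of the other 6 motifs. Among 35116 windows of the same length, 54.4% held a kappaB match, 42.6% a GC box, 10.7% a start-site box, 17.5% an E-box match, 6.57% a gamma-activated site, 3.02% the interferon response core and 92.7% an ETS core. The longest run of bases that the TNFSF13B window shared with the EFNB2 window was 8, and 79.4% of the other windows shared a run at least as long. The guide's own sequence is not given in the sources used here, so no match to it was sought. BAFF is known as an interferon-inducible gene, and an interferon response core was found between its RefSeq starts, 18 bases after the first and 71 before the second. The 30 bases around it (chr13:108269637-108269666, plus strand) carry it in capitals.
TNFSF13B site: tacaaaaactGAAAGTGAAAtgaggaagac

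TNFSF13 differed from BAFF in this window. The 250 bases before its upstream RefSeq start (chr17:7558032-7558281, plus strand) had 64.4% G and C, with 4 kappaB matches, 2 GC boxes and 1 E-box match, again in capitals, and 6 ETS cores. The longest run it shared with the EFNB2 window was 10 bases, which 34% of the other windows reached.
TNFSF13: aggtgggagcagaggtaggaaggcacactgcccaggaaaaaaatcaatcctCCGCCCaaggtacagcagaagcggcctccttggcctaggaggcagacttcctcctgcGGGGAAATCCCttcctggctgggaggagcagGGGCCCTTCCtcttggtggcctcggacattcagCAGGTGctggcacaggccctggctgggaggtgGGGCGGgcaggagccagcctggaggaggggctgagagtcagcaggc

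The window before the other RefSeq start of TNFSF13, not printed, held 4 kappaB matches, 1 GC box and 5 ETS cores, with no E-box match. The window of TNFRSF13B held 5 kappaB matches, 1 GC box, 1 E-box match and 3 ETS cores at 62% G and C. TNFRSF13C was not matched. A match of letters describes the window and does not show that a factor binds there.

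Genes around EFNB2 and TNFSF13B were examined over windows of 3 Mb. GENCODE 29 and RefSeq gave 134 gene names there, some of them for the same locus, such as FAM155A and NALF1. The count table held 76 of these names, and 19 were tested apart from EFNB2 and TNFSF13B. Of these 19, 6 were higher and 2 were lower under the EFNB2 guide, with a median log2 fold change of 0.11 against 0.01 over all tested genes. Between EFNB2 and TNFSF13B, 4 genes were tested. ARGLU1, a splicing-linked gene that starts 32.5 kb from EFNB2, was higher by 0.25 ± 0.07 on the log2 scale (adjusted p = 0.0129). Its groups overlapped through the control A library, at 261 CPM. The other control libraries had 187 to 215 CPM, and those under the EFNB2 guide 219 to 267 CPM. It passed in all 20 alternatives, with log2 fold changes of 0.21 to 0.38. LINC00551 at 82.1 kb had 0.51 ± 0.34 (adjusted p = 0.238). LIG4, a DNA ligase gene, and ABHD13, a hydrolase gene, both start 32.9 kb before TNFSF13B, and their log2 fold changes were -0.04 ± 0.04 and 0.02 ± 0.05 (adjusted p = 0.419 and 0.723). Whether the guide acted on the genes of this region was not tested. The log2 ratio of TNFSF13B to ABHD13 was -1.27 ± 0.09 under the EFNB2 guide and -1.76 ± 0.19 under the control guide, a difference of 0.49 (SD, n = 5 each). This ratio was also chosen after the values were seen and is given as a description, with no test.

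After TNFSF13B, MYO16, an unconventional myosin gene 344.9 kb from its start, was lower under the EFNB2 guide at 1.63 ± 0.211 CPM, against 3.10 ± 0.197 CPM under the control guide (SD, n = 5 each). Its log2 fold change was -0.93 ± 0.10 (SE; adjusted p = 2.77e-06), and the groups did not overlap. IRS2, an insulin receptor adaptor gene, had -0.01 ± 0.04 (adjusted p = 0.811). LINC00346 was lower by a log2 fold change of -2.27 ± 0.30 (adjusted p = 1.49e-05). It reached the filter level in all 5 libraries under the control guide and in 0 of 5 under the EFNB2 guide (at most 0.165 CPM), so it was tested because of its level under the control guide. COL4A1, a basement membrane collagen gene, was higher by 1.02 ± 0.38 on the log2 scale (adjusted p = 0.0373), but did not pass in 6 of its 19 alternatives (adjusted p 0.0190 to 0.117), among them those without the EFNB2 guide's C or E library or the control A or D library. ING1, ANKRD10, NAXD and the gene model AL390755.1 were higher by 0.19, 0.09, 0.12 and 0.12 on the log2 scale, and all 4 passed. NAXD did not pass in 5 of 20 alternatives, among them those without the control B or D library (adjusted p 0.00124 to 0.0654). AL390755.1 did not pass in 9 of 20, among them those without the EFNB2 guide's C or E library or the control A or D library (adjusted p 0.0130 to 0.0958). The other 7 did not pass, with log2 fold changes from 0.01 for ARHGEF7 to 0.60 for AL355974.1. Of these, AL355974.2 and AL442128.2 passed without the control A library (adjusted p = 0.0318 and 0.0307), and AL355974.1 passed without the EFNB2 guide's E library or the control D library (adjusted p = 0.0485 and 0.0234). The adjusted p of these 3 ran from 0.0139 to 0.329, from 0.00796 to 0.342 and from 0.0234 to 0.186 over their alternatives. The genes before BAFF were thus higher or did not pass the test, and those after it were higher, lower or did not pass.

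**Figure D3:**
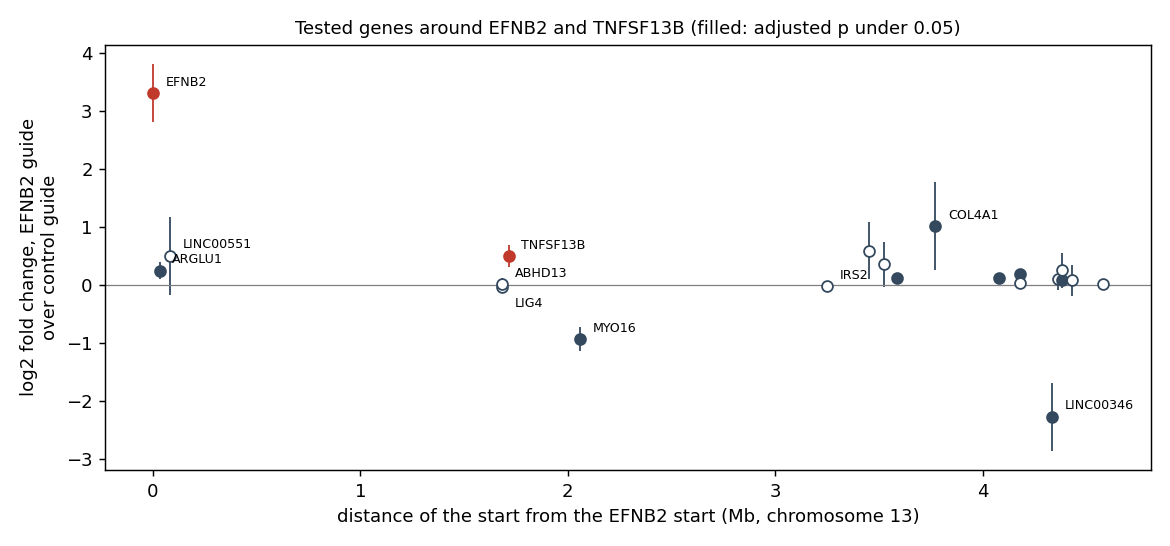
Log2 fold change, EFNB2 guide over control guide, of the tested genes around EFNB2 and TNFSF13B (red) by distance of their starts from that of EFNB2 in megabases; bars are 2 SE and filled points have an adjusted p under 0.05. EFNB2 at 3.32 and TNFSF13B at 0.50 are above the line, ABHD13 and LIG4 just before TNFSF13B lie near 0, and MYO16 after it is at -0.93.

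Genes for proteins that cut or hold the ligands and receptors included some that were higher and some that were lower. Of the 17 receptor, shedding and binding partners, TNFRSF17 among them, 16 were tested, 6 were higher and 4 were lower, with a median log2 fold change of -0.03 against 0.01 over all tested genes. Without both A libraries, 8 were lower. FURIN, a protease able to cut both ligands, was higher at 106 ± 1.76 CPM under the EFNB2 guide, against 65.1 ± 3.82 CPM under the control guide (SD, n = 5 each). Its log2 fold change was 0.70 ± 0.04 (SE; adjusted p = 4.86e-10). ADAM10, a sheddase of TACI, was higher by 0.34 ± 0.02 on the log2 scale (adjusted p = 8.20e-09). SDC1, the syndecan-1 to which APRIL binds, was lower under the EFNB2 guide by a log2 fold change of -0.51 ± 0.05 (adjusted p = 1.85e-06), at 2037 to 2409.9 CPM, against 2642 to 3180 CPM under the control guide. EXT1, which builds heparan sulphate chains, was higher by 0.34 ± 0.04 on the log2 scale (adjusted p = 9.16e-06). CAMLG, a protein that binds TACI, was lower by a log2 fold change of -0.21 ± 0.03 (adjusted p = 2.97e-05).

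Downstream of the receptors, all 22 adaptors, kinases and NF-kB subunits were tested, 9 were higher and 4 were lower, with a median log2 fold change of 0.05. Without the EFNB2 guide's C library, or without the control D or E library, 2 were lower. REL, an NF-kB subunit, was higher at 31.8 ± 1.58 CPM under the EFNB2 guide, against 19.98 ± 1.77 CPM under the control guide (log2 fold change 0.67 ± 0.06 SE, adjusted p = 1.24e-07). The adaptors TRAF1 and TRAF5 were higher by 0.57 ± 0.09 and 0.36 ± 0.06 on the log2 scale (adjusted p = 8.19e-05 and 9.81e-05). MAP3K14, which encodes NIK, the kinase that starts the alternative pathway, was lower by a log2 fold change of -0.13 ± 0.03 (adjusted p = 0.00142). OTUD7B, a deubiquitinase of TRAF3, was lower by a log2 fold change of -0.17 ± 0.03 (adjusted p = 0.000299). BIRC2, a ubiquitin ligase that acts on NIK, was lower by a log2 fold change of -0.13 ± 0.04 (adjusted p = 0.0191), but did not pass without the EFNB2 guide's B or C library or the control D or E library (adjusted p 0.00769 to 0.0653 over 20 alternatives). TRAF2 and TRAF3, which hold NIK in check, had -0.02 and 0.04 and did not pass (adjusted p = 0.585 and 0.384).

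Of the 21 NF-kB target genes, 18 were tested, 10 were higher and 2 were lower, with a median log2 fold change of 0.11. PLEK, which encodes pleckstrin, was higher at 35.3 ± 2.89 CPM under the EFNB2 guide, against 4.06 ± 0.543 CPM under the control guide (log2 fold change 3.12 ± 0.08 SE, adjusted p = 1.80e-13). CD83, an activation marker, was higher by 0.72 ± 0.20 on the log2 scale (adjusted p = 0.00713). TNIP1, which limits NF-kB signalling, was lower by a log2 fold change of -0.39 ± 0.05 (adjusted p = 5.00e-06). PIM2, a survival kinase, was lower by a log2 fold change of -0.17 ± 0.03 (adjusted p = 0.000586). NFKB2 and RELB, the subunits of the alternative pathway and also its targets, were higher by 0.13 and 0.21 on the log2 scale (adjusted p = 0.000280 and 0.000530). BIRC3, another target, had -0.03 ± 0.04 (adjusted p = 0.559). Without both A libraries, and in no other alternative, BIRC3 passed as lower (-0.11, adjusted p = 3.57e-05, range 3.57e-05 to 0.834 over 20 alternatives). This list and the list of adaptors share 5 genes, among them these last 3, so their counts are not independent. Without the control A library 4 of the targets were lower, and without both A libraries 5.

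**Figure D4:**
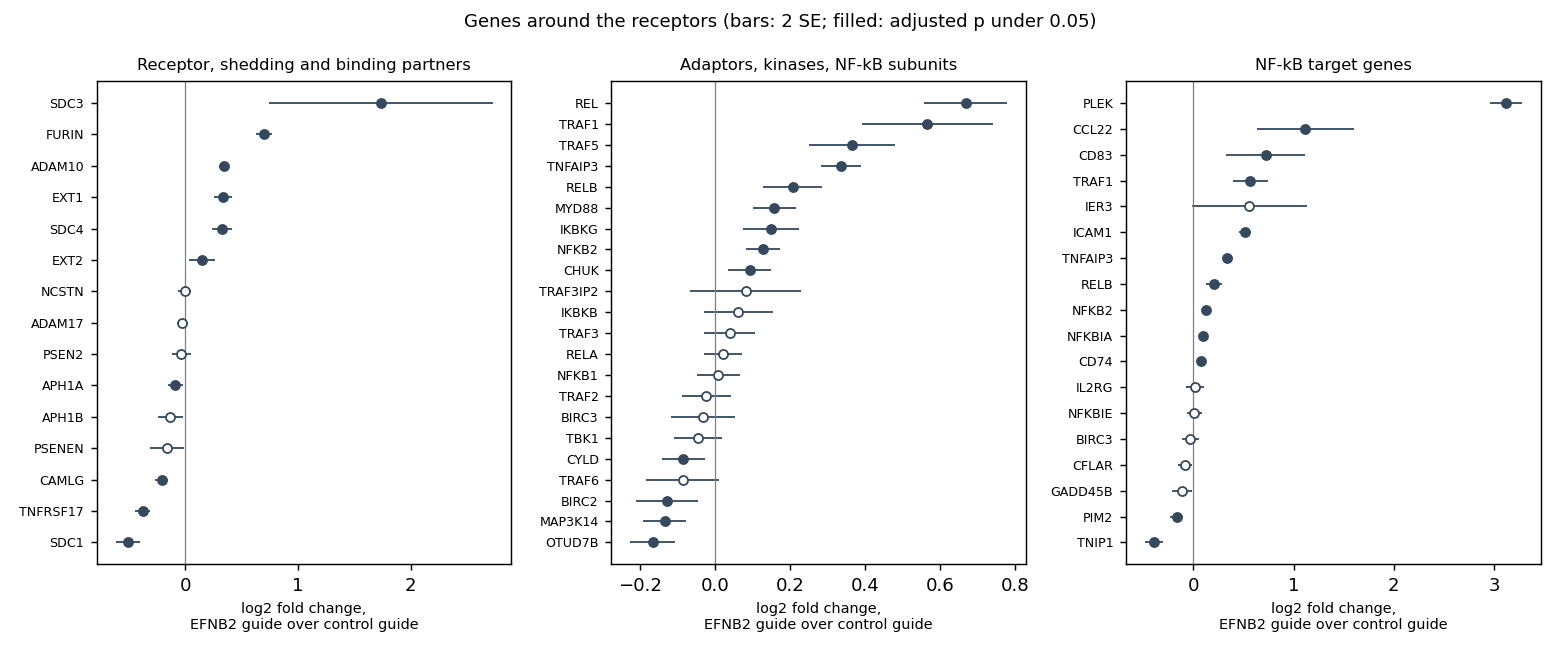
Log2 fold change, EFNB2 guide over control guide, of tested genes around the receptors, in 3 panels: receptor, shedding and binding partners, adaptors with kinases and NF-kB subunits, and NF-kB target genes. Points are estimates, bars are 2 SE and filled points have an adjusted p under 0.05; each panel has its own axis and holds genes on both sides of 0, with FURIN at 0.70, REL at 0.67 and PLEK at 3.12.

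Of the 15 survival genes that lie downstream of BAFF in B cells, 13 were tested, 2 were higher and 6 were lower, with a median log2 fold change of -0.06. BMF, a gene that promotes cell death, was lower at 59.4 ± 2.73 CPM under the EFNB2 guide, against 100.1 ± 3.98 CPM under the control guide (log2 fold change -0.75 ± 0.04 SE, adjusted p = 2.37e-10). BCL2L1, which encodes the anti-apoptotic BCL-xL, was higher by 0.19 ± 0.03 on the log2 scale (adjusted p = 2.32e-05), and the kinase gene AKT1 by 0.10 ± 0.02 (adjusted p = 0.00154). The kinase gene BTK was lower by a log2 fold change of -0.42 ± 0.07 (adjusted p = 0.000249). MCL1, the survival factor on which plasma cells depend through BCMA, had 0.05 ± 0.04 and did not pass (adjusted p = 0.345). The 6 that fell hold genes that promote survival (PIM2, BCL2) and genes that promote death (BMF, BCL2L11). BCL2 passed in 19 of 20 alternatives, but not in edgeR's quasi-likelihood test with a term for the library letters (adjusted p = 0.0519). With that term 4 genes of the list were lower. BCL2L11 did not pass without the control B, C, D or E library (adjusted p 1.19e-05 to 0.0549 over 20 alternatives).

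The other ligands of the superfamily place BAFF and APRIL among their relatives. Of 16 other TNF superfamily ligands 7 were tested, 5 were higher and 1 was lower, with a median log2 fold change of 0.59 against 0.01 over all tested genes. TNFSF9, which encodes 4-1BB ligand, was higher at 19.6 ± 0.613 CPM under the EFNB2 guide, against 3.10 ± 0.461 CPM under the control guide (log2 fold change 2.66 ± 0.08 SE, adjusted p = 5.81e-13). TNFSF4, which encodes OX40 ligand, and CD70, the ligand of CD27, were higher by 0.73 ± 0.09 and 0.59 ± 0.03 on the log2 scale (adjusted p = 4.74e-06 and 5.40e-10). LTA, which encodes lymphotoxin alpha, was lower by a log2 fold change of -0.19 ± 0.06 (adjusted p = 0.0193), but did not pass without the EFNB2 guide's B, C or D library or the control E library (adjusted p 2.85e-06 to 0.0620 over 20 alternatives). Without the EFNB2 guide's A library or the control B library, 2 ligands were lower. The log2 fold change of APRIL lay below that of TNFSF9 and above those of the other 6, and that of BAFF was the sixth of the 9 tested ligands.

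Of 26 other TNF receptor superfamily members 13 were tested, 6 were higher and 1 was lower, with a median log2 fold change of 0.18. RELT and the death receptor gene FAS were higher by 0.52 ± 0.06 and 0.44 ± 0.05 on the log2 scale (adjusted p = 5.28e-06 and 3.49e-06). TNFRSF25, another death receptor gene, was higher by 0.21 ± 0.08 (adjusted p = 0.0327), but did not pass in 9 of 20 alternatives (adjusted p 0.000442 to 0.0911), among them those without the C, D or E library of either guide or the control B library. Without the EFNB2 guide's E library, or without the control B or C library, 3 receptors were higher. The receptor that was lower was TNFRSF1A, a receptor of TNF, at 0.361 ± 0.137 CPM under the EFNB2 guide, against 0.877 ± 0.203 CPM under the control guide (log2 fold change -1.26 ± 0.25 SE, adjusted p = 0.000641), named after its values were seen.

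**Figure D5:**
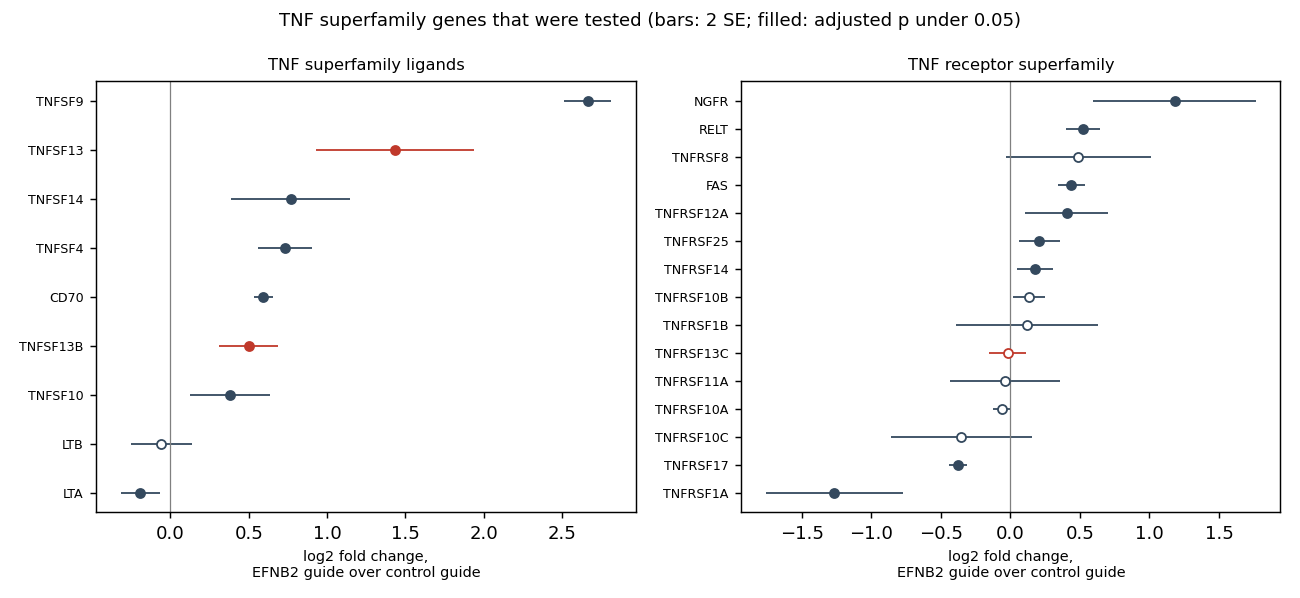
Log2 fold change, EFNB2 guide over control guide, of every tested TNF superfamily ligand (left) and receptor (right), with BAFF, APRIL and the BAFF receptor in red; bars are 2 SE and filled points have an adjusted p under 0.05. TNFSF13 at 1.43 and TNFSF13B at 0.50 lie among ligands that run from -0.19 for LTA to 2.66 for TNFSF9, and TNFRSF13C at -0.02 lies among receptors that run from -1.26 for TNFRSF1A to 1.18 for NGFR.

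BAFF and APRIL are made mainly by myeloid and stromal cells, so the markers of other cell types are given beside the ligands. No marker on the lists was at 0 in all 10 libraries. The 6 myeloid markers summed to 3.02 to 3.88 CPM under the EFNB2 guide and 2.52 to 3.08 CPM under the control guide, most of it from ITGAM. CD33 had 0.460 to 0.779 CPM under the EFNB2 guide and 0.456 to 0.529 CPM under the control guide. CD14 had 0.143 to 0.348 CPM under the EFNB2 guide and 0 to 0.220 CPM under the control guide. LYZ, CSF1R and FCN1 stayed at or below 0.0734 CPM in every library. The 5 stromal markers summed to 25.5 to 29.9 CPM under the EFNB2 guide and 19.9 to 27.2 CPM under the control guide, most of it from COL1A1, with COL1A2, DCN and LUM at or below 0.215 CPM. COL1A1 was higher (22.5 to 26.7 CPM under the EFNB2 guide, against 15.9 to 21.6 under the control guide) and COL3A1 lower (2.83 to 3.27 CPM under the EFNB2 guide, against 3.40 to 5.41), both without overlap. The 6 B cell markers summed to 1.21 to 1.96 CPM under the EFNB2 guide and 0.555 to 1.01 CPM under the control guide, with MS4A1 at or below 0.0551 CPM. FCER2 (0.564 to 1.05 CPM under the EFNB2 guide, against 0.0896 to 0.252 under the control guide) and PAX5 (0.0551 to 0.217 CPM, against 0 to 0.0388) were higher without overlap. The 6 T cell markers summed to 3.69 to 4.27 CPM under the EFNB2 guide and 3.91 to 5.73 CPM under the control guide. Most of it came from CD3E, at 2.53 to 3.22 CPM under the EFNB2 guide and 2.50 to 4.40 CPM under the control guide. CD3D stayed at or below 0.0189 CPM. CD8A was lower without overlap (0.588 to 0.861 CPM under the EFNB2 guide, against 0.907 to 1.61). The part of these marker sums in the ligand values was not tested.

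Genes that deviated from their guide means in step with a member were named by the correlation of log2 CPM deviations over the 10 libraries, as a description. For TNFSF13B they were HS2ST1, a heparan sulphate sulphotransferase gene (r = 0.97), TRMT9B (r = 0.97) and STK17B (r = 0.96), and without both A libraries r was 0.83, 0.90 and 0.77 over 8 libraries. For TNFSF13 they were ZNF280B (r = 0.93), AMN1 (r = 0.89) and ZNF595 (r = 0.88). For TNFRSF13C they were CARD16 (r = 0.94) and AFF1 (r = 0.92). The 10 points share each library's depth and scaling, and these genes are the highest of many examined, so the values say nothing of shared control.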

How the data were processed

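Poly(A) RNA from U266 cells was read in 10 libraries, 5 for each guide, grouped by the genotype in the labels. Per the labels' protocols, the libraries were strand-specific and sequenced as read pairs. Per the submitters' processing notes, GRCh38, STAR 2.27a, Partek and DESeq2 were used, with no role stated. Which annotation and strand setting the counting used is not stated in those notes or in the labels. The authors deposited raw counts per gene, used throughout, and a normalized signal per gene equal to the count plus 0.0001 times 1 constant per library (within 0.000497% above 100 counts), used as an alternative. The 4 rows that name no gene were left out (at most 0.000401% of counts).

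Genes were filtered by filterByExpr (a CPM of at least 0.191, or 10 counts in the median library, in 5 libraries, and 15 counts in all), scaled by TMM and compared by edgeR 4.0.16 (R 4.3.3) with the quasi-likelihood test, no term but guide, and Benjamini-Hochberg adjustment over all 17833 genes. The biological coefficient of variation was 0.0489. Fold changes are the EFNB2 guide over the control guide, and the SE is the fold change over the square root of F. Log2 CPM used a prior count of 2. Alternatives were DESeq2 1.42.0, limma-voom (limma 3.58.1), other scalings, filters, a replicate block, the deposited signal as log2(value + 1), and leaving out libraries. The steps were run on simulated data in which few genes changed, while 45.4% of the tested genes passed here. That run therefore does not check the scaling or the calls in a setting like this one. Positions and exon lengths came from GENCODE 29 and promoter windows from RefSeq (GRCh38.p14), in which 3 of the 4 members had an entry. Intervals of counts cover counting error only, since no molecular identifiers are described.

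The members and gene lists were chosen with earlier results of these data known. Named genes were the members, EFNB2, TNFRSF17, genes overlapping or next to a member, tested neighbours, the 3 genes most like each member, and per list up to 3 higher and 3 lower genes of largest change with an adjusted p under 0.05 and a mean log2 CPM of at least 0. Other genes named were chosen after their values were seen (TRAF2, TRAF3, NFKB2, RELB, BIRC3, BCL2, BCL2L11, MCL1 and TNFRSF1A). Some genes the rule gave are not reported here.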

Additional observations from a re-analysis of the deposited data

Results flagged for a closer look

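Of 124 groups of 5 libraries examined (62 genes, both guides), 19 had 1 library farther from its nearest neighbour than Dixon's 95% limit allows, where chance gives about 1 in 20, and 17 of the 19 were A libraries. None was a value of a BAFF or APRIL gene. In the EFNB2 guide's A library, ARGLU1 was low at 219 CPM (others 255 to 267), SDC1 was high at 2409.9 CPM (others 2037 to 2060), PLEK was low at 30.2 CPM (others 35.7 to 37.0), TNIP1 was high at 318 CPM (others 278 to 286), BCL2L1 was low at 318 CPM (others 339 to 347) and LTA was high at 23.6 CPM (others 18.8 to 19.8). In the same library RELB was high at 98.4 CPM (others 86.5 to 89.2), BIRC3 at 585 CPM (others 513 to 523) and BCL2 at 296 CPM (others 269 to 274), while BCL2L11 was low at 124 CPM (others 135 to 138). In the control A library, TNIP1 was low at 335 CPM (others 390.04 to 391), BMF was low at 93.0 CPM (others 101 to 102) and TNFRSF25 was high at 7.07 CPM (others 5.65 to 6.05). There BIRC3 was also low at 489 CPM (others 551 to 569), BCL2 at 265 CPM (others 312 to 331), BCL2L11 at 131 CPM (others 147 to 149) and MCL1 at 1070.05 CPM (others 1212 to 1247). In the control B library, ING1 was low at 18.5 CPM (others 20.1 to 20.7) and ANKRD10-IT1 was high at 5.20 CPM (others 4.33 to 4.52).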

How the results depend on the processing

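TNFSF13B and TNFSF13 kept their direction and an adjusted p under 0.05 in every alternative that gave a value (20 and 19), with log2 fold changes of 0.40 to 0.55 and 0.41 to 1.62; TNFSF13 was not kept by a minimum of 1 CPM. Leaving out 1 library, TNFRSF13C ranged from -0.0554 to 0.0268, without passing in any alternative, and the log2 ratio of summed TNFRSF13B counts from -0.19 to 0.60. Without a filter TNFRSF13B had an adjusted p of 0.730 by edgeR and 0.779 by DESeq2. With the replicate block, the log2 fold changes were 0.51 for TNFSF13B and 1.45 for TNFSF13, and 3425 genes were higher and 3338 lower; libraries of 1 letter did not deviate together (r from -0.24 to -0.00), so the letters were not taken as pairs. The count of other TNF receptors that were higher was 3 with the replicate block and 3 to 7 leaving out 1 library, and the count lower was 0 at a minimum of 1 CPM, 2 on the deposited signal and 2 without both A libraries. With both A libraries left out, 8 binding partners and 5 NF-kB targets were lower. On the deposited signal, 4 NF-kB targets were lower and 3 neighbours were higher. At a minimum of 1 CPM, 1 neighbour was lower. Leaving out 1 library, the count lower ranged from 2 to 5 for adaptors, from 2 to 4 for NF-kB targets and from 0 to 2 for other ligands. Among genes that did not pass, ABHD13 reversed to -0.000666 on the deposited signal and -0.00929 without both A libraries (-0.0204 to 0.0512 leaving out 1 library), IRS2 to 0.00269 with library totals alone (-0.0464 to 0.00736 leaving out 1 library), ARHGEF7 to -0.0134 on the deposited signal, TRAF3 to -0.00663 and MCL1 to -0.00926 without both A libraries, and SENP3 to 0.000897 with library totals alone and 0.0111 without both A libraries (-0.0364 to 0.0149 leaving out 1 library). BCL2 did not pass with the replicate block (adjusted p = 0.0519, range 9.23e-10 to 0.0519). The median log2 fold change of all tested genes moved between -0.01 and 0.02 across the scalings. The causes were not tested. The low counts of TNFRSF13B limit what can be said of TACI.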
